A study of Homo sapiens with 11 samples.

Results

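The genes described here are those whose transcript level in RT4 cells was at least 2.5-fold above the untreated level during nickel exposure and again after the nickel had been removed. They were chosen from TPM values with 0.5 added, where TPM is a transcript level divided by length and scaled to the same total in every library. A member has ratios of at least 2.5 for nickel-exposed over untreated cells and for nickel-washed-out over untreated cells, taken within the same replicate number and met in both replicates, and a mean of at least 2 TPM over the 4 nickel libraries. The rule selected 92 of 28252 genes (0.326%). The rule itself used the comparisons with untreated cells, so those are given as a description. The tested comparison is washed-out against exposed cells, whose ratio the rule did not use. The levels of both groups did enter the rule, which set a minimum for each, so that members and all genes tested were not chosen alike.

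RT4 is a human urinary bladder epithelial cell line. Its untreated cells (UT), cells given 100 μM NiCl2 for 6 weeks (Ni-E) and cells treated in the same way and then kept for 2 weeks in medium without nickel (Ni-W) were profiled by RNA-Seq, with 2 replicates each. A separate line, the human lung epithelial line BEAS-2B, was profiled for H3K4me3 by ChIP-Seq with a single library (n = 1) for each of the same 3 conditions. The BEAS-2B Ni-W cells were a single population grown from a colony and kept for more than 6 months after nickel, so that they differ from the RT4 Ni-W cells in line, clonal origin and length of washout.

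The RT4 libraries held 17075833 to 18280556 estimated counts in replicate 1 and 25721265 to 27736454 in replicate 2, so that depth differed by replicate number and not by condition. The 13 urothelial and epithelial markers examined summed to 13559 to 17118 TPM in all 6 libraries, most of it from the keratins KRT7 and KRT19. The uroplakins examined, plaque proteins that define urothelium, did not keep one level. UPK1A was at 70.6 and 92.5 TPM in UT, 16.1 and 18.5 in Ni-E and 39.6 and 44.4 in Ni-W cells. UPK2 was at 285 and 402 TPM in UT, 96.2 and 128 in Ni-E and 222 and 328 in Ni-W cells. UPK1B was at 106 and 86.2 TPM in UT, 58.0 and 51.9 in Ni-E and 117 and 82.6 in Ni-W cells. UPK3A was at 71.4 and 95.4 TPM in UT, 49.8 and 59.2 in Ni-E and 102 and 127 in Ni-W cells. Each was thus lowest under exposure, and after washout UPK1A stayed below UT cells while UPK3A lay above them. The part of these differences in the results was not tested. COL1A2 and DCN, which define fibroblasts, and CD3E, which defines T cells, were listed at 0 in every library. The 6 leukocyte markers summed to 3.99 to 5.75 TPM in UT, 5.25 to 6.50 in Ni-E and 8.21 to 9.99 in Ni-W cells, most of it from ITGAM, and the part of this in the results was not tested. The 6 fibroblast markers summed to at most 5.13 TPM, most of it from COL3A1, itself a member. In these bulk libraries, fewer cells expressing a gene and less RNA per cell cannot be told apart.

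Nickel ions can take the place of iron in the oxygen-dependent prolyl hydroxylases that mark HIF-1α for degradation, and nickel is therefore known as a chemical mimic of hypoxia that turns on HIF target genes. Interferon-stimulated genes are a separate programme: type I and type III interferons act through JAK kinases to activate a complex containing IRF9 that binds the interferon-stimulated response element and switches on antiviral genes. Metallothioneins are small cysteine-rich proteins that bind metals and are induced through the metal-responsive factor MTF1.

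The members were lifted together in Ni-E and Ni-W cells and took up a small share of the transcriptome. Their summed level was 0.116% and 0.109% of all TPM in the UT replicates, 0.515% and 0.504% in Ni-E cells and 0.548% and 0.537% in Ni-W cells. The median Ni-E/UT ratio of a member was 4.89 in replicate 1 and 4.81 in replicate 2, and the median Ni-W/UT ratio was 5.31 and 4.53. Of the 92 members, 31 were below 1 TPM in both UT libraries and 16 were at 10 TPM or more in both, so that the set holds genes nearly silent in untreated cells as well as genes already well expressed. By itself, the Ni-E condition with the TPM minimum was met by 186 genes and the Ni-W condition by 155.

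The levels close to the threshold show how the set is bounded. Just inside it, by the smallest of the 4 ratios, lay the tetraspanin gene TSPAN7 (2.51), the neutrophil chemokine gene CXCL8 (2.52) and APOL1, which encodes a trypanolytic apolipoprotein (2.52). Just outside it lay RGMA (2.49), the macrophage growth factor gene CSF1 (2.49) and the interferon-induced chemokine gene CXCL11 (2.46). The member with the largest smallest ratio, the small nucleolar RNA gene SNORA9 (40.1), was listed at 0 TPM in both UT libraries and at 19.6 to 41.1 TPM in the nickel libraries. Those values rest on at most 2 reads in any library over a very short effective length. It did not pass the count filter and no further value is given for it. The other 91 members were among the 14502 genes tested.

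A pair of the gene lists examined accounts for 26 members. The list of interferon-stimulated genes holds 17 and the list of HIF target genes holds 9. Over the 22 lists, 43 members were in at least 1 list and 49 in none. The lists of NRF2 target genes, AP-1 and immediate early genes, MHC class I genes, urothelial genes, S100 proteins, integrins, mucins, AHR and xenobiotic metabolism genes, TGF-beta response genes and retinoic acid response genes held no member. Each of these lists has 9 to 29 tested genes, and members were 91 of the 14502 genes tested. The lack of a member in lists of this size therefore says little about them.

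**Figure D1:**
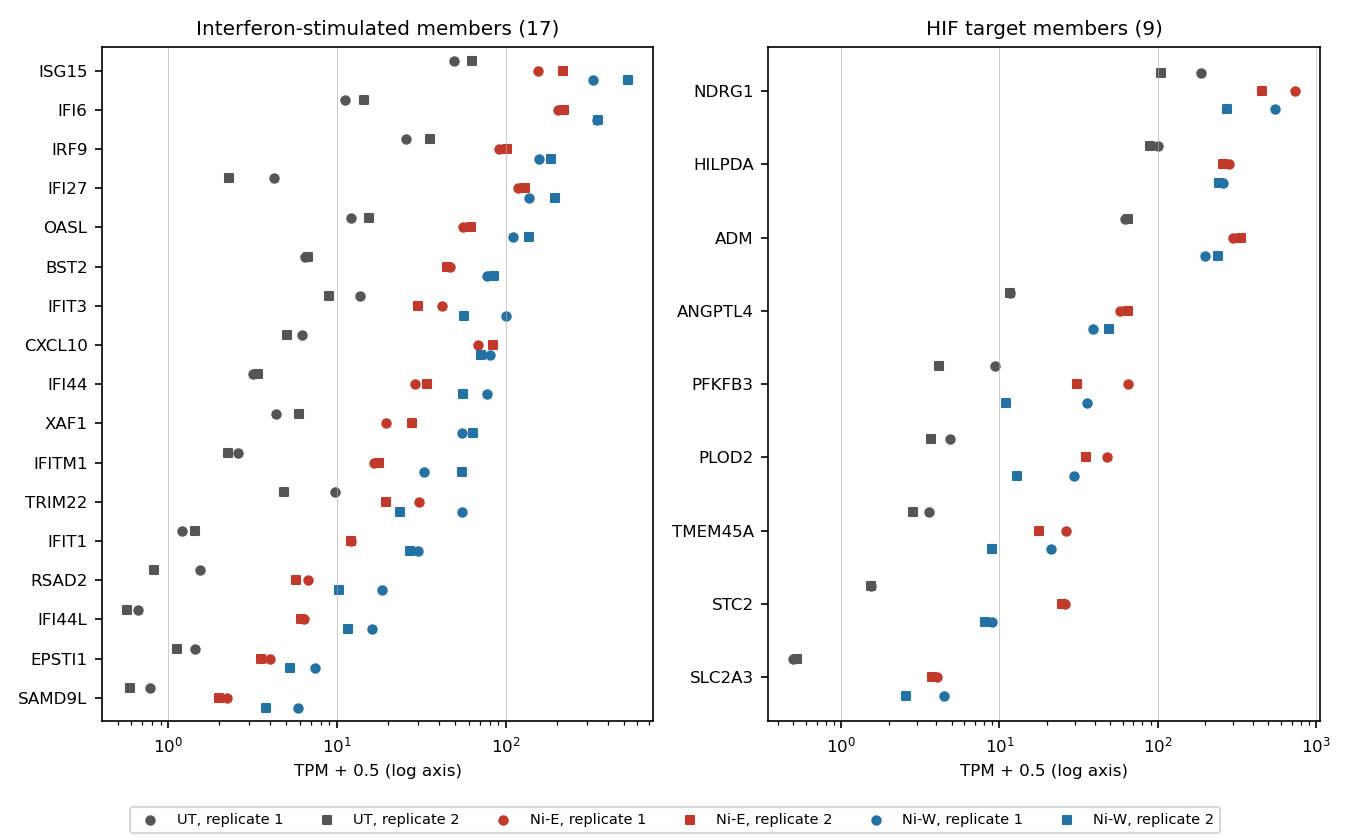
TPM + 0.5 (horizontal log axis) of the 17 interferon-stimulated members (left) and the 9 HIF target members (right) in each RT4 library. Grey points are UT, red Ni-E and blue Ni-W cells, circles are replicate 1 and squares replicate 2. In the left panel the blue points lie right of the red ones for most genes, while in the right panel they lie level with them or to the left.

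The interferon-stimulated members, chosen for lying above UT cells, were mostly higher in Ni-W than in Ni-E cells. Their summed level was 145 and 164 TPM in UT cells, 898 and 1008 in Ni-E cells and 1626 and 1857 in Ni-W cells. Both Ni-W sums lay above both Ni-E sums, while the gap to UT cells follows from the rule. The Ni-W/Ni-E ratio was above 1 in both replicates for 16 of the 17, the exception being CXCL10. Both Ni-W libraries lay above both Ni-E libraries for 15 of the 17, against 14.6% of all genes tested. The median log2 difference was 1.06 (from -0.05 for CXCL10 to 1.40 for IFITM1), against 0.02 over all genes tested.

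The effectors with antiviral roles made up most of this group. IFI27, which encodes a mitochondrial protein strongly induced by type I interferon, was at 3.74 and 1.79 TPM in UT cells, 118 and 129 TPM in Ni-E cells and 137 and 194 TPM in Ni-W cells. Its smallest ratio to UT cells, 27.9, was the largest of the 91 tested members. IFI6, an inhibitor of apoptosis and of flavivirus replication, was at 10.6 and 14 TPM in UT cells, 204 and 219 TPM in Ni-E cells and 347 and 349 TPM in Ni-W cells. ISG15, a ubiquitin-like protein that is conjugated to other proteins in interferon-treated cells, was at 48.5 and 62.8 TPM in UT cells, 154 and 217 TPM in Ni-E cells and 327 and 531 TPM in Ni-W cells. In these 3 genes both Ni-W libraries lay above both Ni-E libraries. The Ni-W library of replicate 2 gave the highest ISG15 level, and the spread between the replicates widened from UT to Ni-W cells.

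IFIT1, which binds viral RNA lacking a methylated cap, was at 0.71 and 0.94 TPM in UT cells, 11.5 and 11.5 TPM in Ni-E cells and 29.6 and 26.5 TPM in Ni-W cells. Its neighbour IFIT3, which stabilises IFIT1, was at 13.2 and 8.47 TPM in UT cells, 41.0 and 29.8 TPM in Ni-E cells and 100.0 and 56.1 TPM in Ni-W cells. The 2 genes lie 51655 bases apart on chromosome 10 (GRCh38.p14). The Ni-E replicates of IFIT1 were nearly equal, whereas IFIT3 was lower in replicate 2 in every condition.

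IFI44L was nearly silent in UT cells (0.16 and 0.07 TPM) and stood at 5.87 and 5.63 TPM in Ni-E cells and 15.7 and 11.1 TPM in Ni-W cells. Next to it on chromosome 1, 3644 bases away, IFI44 was at 2.65 and 2.88 TPM in UT cells, 28.5 and 33.4 TPM in Ni-E cells and 77.1 and 55.2 TPM in Ni-W cells. Both follow the same order, with no overlap between Ni-E and Ni-W cells. XAF1, a pro-apoptotic interferon target, was at 3.86 and 5.45 TPM in UT cells, 18.9 and 27.3 TPM in Ni-E cells and 54.5 and 62.9 TPM in Ni-W cells. IFITM1, which blocks viral entry, was at 2.09 and 1.76 TPM in UT cells, 15.9 and 17.3 TPM in Ni-E cells and 32.1 and 54.5 TPM in Ni-W cells. BST2, also called tetherin, which holds budding virus at the cell surface, was at 5.95 and 6.22 TPM in UT cells, 46.0 and 44.3 TPM in Ni-E cells and 76.5 and 84.3 TPM in Ni-W cells. In these 3 genes too, every Ni-W library lay above every Ni-E library.

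IRF9, the DNA-binding subunit of the complex that carries type I interferon signals to the nucleus, was itself a member. It was at 25.2 and 35.1 TPM in UT cells, 89.8 and 101 in Ni-E cells and 157 and 185 in Ni-W cells. Both Ni-W libraries lay above both Ni-E libraries. CXCL10, a chemokine that draws T cells, did not follow the others. It was at 5.72 and 4.52 TPM in UT cells, 67.3 and 82.9 TPM in Ni-E cells and 79.5 and 70.6 TPM in Ni-W cells, and the Ni-W and Ni-E libraries overlapped. TRIM22 overlapped as well, with 29.9 and 18.9 TPM in Ni-E cells and 54.1 and 23.2 TPM in Ni-W cells, although its ratio was above 1 in both replicates. OASL, RSAD2, EPSTI1 and SAMD9L had every Ni-W library above every Ni-E library. OASL, an oligoadenylate synthetase-like protein, was the most abundant of these 4, with 55.3 and 61.4 TPM in Ni-E cells and 110 and 136 TPM in Ni-W cells.

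The short motif bound by the IRF9 complex was searched in RefSeq promoters (GRCh38.p14, 250 bases before to 50 after each start) because these members moved together. Promoters were matched for 15 of the 17 genes, all but OASL and TRIM22, giving 20 promoters. The core, GAAA then any 2 bases then GAAA, on either strand, was in 15 of the 20 (75.0%). At least 1 promoter of 12 genes held it. Its share was 3.57% of 35116 promoters and 2.89% of those of genes tested in RT4. IFI27 and IFI44 have 2 overlapping promoters each, so that the same match is counted in both. Of the 11 motifs searched, the interferon gamma activated site (TTC, any 3 bases, GAA) was in 6 of the 20 (30%). Its share was 7.66% of all promoters and 6.30% of those of tested genes. The list was assembled from genes known to respond to interferon, and only its members were searched, so that the matches describe these genes. Whether the matches go with their response here was not tested. For 6 of them, with high or steeply changed levels, the stretch holding the core is printed 5′ to 3′ on the gene's strand with the matching bases in capitals.
ISG15 (chr1:1013354-1013429, plus strand): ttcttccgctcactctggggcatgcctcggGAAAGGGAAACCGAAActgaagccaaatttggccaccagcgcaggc
IFIT1 (chr10:89392477-89392559, plus strand): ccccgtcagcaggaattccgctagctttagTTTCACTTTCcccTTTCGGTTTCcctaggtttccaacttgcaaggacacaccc
IFI27 (chr14:94110598-94110680, plus strand): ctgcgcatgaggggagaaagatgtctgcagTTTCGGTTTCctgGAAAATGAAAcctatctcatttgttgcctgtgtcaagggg
IFI6 (chr1:27672246-27672378, minus strand): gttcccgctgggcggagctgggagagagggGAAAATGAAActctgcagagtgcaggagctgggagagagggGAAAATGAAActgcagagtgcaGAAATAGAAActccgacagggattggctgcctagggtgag
BST2 (chr19:17405715-17405790, minus strand): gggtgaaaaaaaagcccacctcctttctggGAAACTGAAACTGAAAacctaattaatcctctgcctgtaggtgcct
IFI44 (chr1:78649741-78649788, plus strand): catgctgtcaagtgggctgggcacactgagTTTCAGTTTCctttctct
ISG15 and BST2 hold 2 overlapping matches each, IFIT1 and IFI27 hold 2 separate ones and IFI6 holds 3. CXCL10, whose Ni-W and Ni-E libraries overlapped, also holds 1 match.

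The HIF target members ran the other way after washout. They were NDRG1, ADM, PFKFB3, SLC2A3, PLOD2, ANGPTL4, STC2, TMEM45A and HILPDA. Their summed level was 378 and 278 TPM in UT cells, 1532 and 1219 TPM in Ni-E cells and 1144 and 842 TPM in Ni-W cells. The Ni-W/Ni-E ratio was below 1 in both replicates for 8 of the 9 and above 1 in both for 0. Both Ni-W libraries lay below both Ni-E libraries for 4 of the 9, against 10.5% of all genes tested. The median log2 difference was -0.60, from -1.67 for STC2 to -0.14 for HILPDA.

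STC2, a secreted glycoprotein hormone also counted in the list of the integrated stress response, was at 1.04 and 1.05 TPM in UT cells, 25.4 and 24.3 TPM in Ni-E cells and 8.54 and 7.57 TPM in Ni-W cells. Its replicates lay close together in every condition. PLOD2, a collagen lysyl hydroxylase, was at 4.34 and 3.21 TPM in UT cells, 47.3 and 34.9 TPM in Ni-E cells and 29.0 and 12.4 TPM in Ni-W cells. PFKFB3, which makes the activator of phosphofructokinase in glycolysis, was at 8.92 and 3.67 TPM in UT cells, 64.3 and 30.3 TPM in Ni-E cells and 35.4 and 10.5 TPM in Ni-W cells. In PFKFB3 the libraries of Ni-E and Ni-W cells overlapped, since replicate 1 was higher in all 3 conditions, while the ratio within each replicate was 0.554 and 0.358.

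NDRG1, a stress-responsive gene used as a marker of hypoxia, was at 187 and 104 TPM in UT cells, 730 and 454 TPM in Ni-E cells and 553 and 273 TPM in Ni-W cells. It too was higher in replicate 1 throughout. ADM, the vasodilator adrenomedullin, was at 61.9 and 64.6 TPM in UT cells, 299 and 333 TPM in Ni-E cells and 198 and 238 TPM in Ni-W cells. ANGPTL4, an inhibitor of lipoprotein lipase, was at 11.2 and 11.2 TPM in UT cells, 57.0 and 64.8 TPM in Ni-E cells and 38.2 and 48.7 TPM in Ni-W cells. Both ADM and ANGPTL4 had every Ni-W library below every Ni-E library. HILPDA, a lipid droplet protein, stayed closest to its exposed level, with 101 and 88.5 TPM in UT cells, 280 and 257 TPM in Ni-E cells and 258 and 241 TPM in Ni-W cells. SLC2A3, the glucose transporter GLUT3, was listed at 0 and 0.03 TPM in UT cells and at 3.55 and 3.23 TPM in Ni-E cells. In Ni-W cells it stood at 3.96 and 2.06 TPM, above Ni-E in replicate 1 and below it in replicate 2.

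Promoters were matched for 6 of these 9 genes (66.7%), so that no share is given over the group. The core of the hypoxia response element was searched as ACGTG and as GCGTG, on either strand. These short strings were in 21.4% and 36.5% of all promoters, and in 24.9% and 47.6% of those of genes tested in RT4. The matched gene TMEM45A held neither, while the interferon-stimulated member ISG15 held both. For 4 of the matched genes the stretch with the matches in capitals is shown, because they include the 3 with the largest differences between Ni-W and Ni-E cells.
STC2 (chr5:173328602-173328664, minus strand): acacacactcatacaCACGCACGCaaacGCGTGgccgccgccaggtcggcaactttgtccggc
PLOD2 (chr3:146161296-146161427, minus strand): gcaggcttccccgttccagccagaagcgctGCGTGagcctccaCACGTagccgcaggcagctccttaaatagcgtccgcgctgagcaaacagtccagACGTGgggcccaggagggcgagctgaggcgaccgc
PFKFB3 (chr10:6202794-6202859, plus strand): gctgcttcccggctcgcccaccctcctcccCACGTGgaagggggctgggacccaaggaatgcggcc
ANGPTL4 (chr19:8363905-8363955, plus strand): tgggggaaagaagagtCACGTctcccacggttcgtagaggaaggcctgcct

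Ni-W cells were compared with Ni-E cells in the counts by edgeR's quasi-likelihood test, with Benjamini-Hochberg adjustment over the 14502 genes. At a 1.5-fold difference and an adjusted p below 0.05, 0 of the 91 members were called, and 0 of all genes (0% in each direction). The smallest adjusted p of a member was 0.148, for CHST2 and STC2. At an unadjusted p below 0.05 by this test there were 32 members, 17 higher and 15 lower in Ni-W cells. Over all genes tested the share was 5.57% (3.25% higher and 2.32% lower). The rule acted on the levels of both groups, so that these shares are a description. DESeq2 called 4 members higher, IFI44, IFI44L, IFIT1 and KLHDC7B, and 4 lower, CHST2, STC2, TSPAN7 and VSNL1, against 0.606% and 0.341% of the genes it tested. With the replicate number as a block, the quasi-likelihood test called 36 members, 20 higher and 16 lower in Ni-W cells, against 2.72% of all genes higher and 1.8% lower. The 20 were 14 of the interferon-stimulated members (all but IFI27, TRIM22 and CXCL10) with KLHDC7B, SERPINA3, CCL5, SYNPO, HSPB8 and IL32. The 16 were the HIF target members STC2, PLOD2, PFKFB3 and NDRG1 with TSPAN7, VSNL1, CHST2, SRPX, ASB2, SLPI, NRG1, CXCL8, ROR2, EFEMP1, HES2 and FYN. Whether a member is called thus depends on the block, and the differences below, from the fit without it, are given as values with their standard errors.

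By the same test, the 13 interferon-stimulated members with an unadjusted p below 0.05 were all higher in Ni-W cells. IFITM1 differed by 1.40 ± 0.41 on the log2 scale (SE, n = 2 and 2), SAMD9L by 1.37 ± 0.38, XAF1 by 1.30 ± 0.35, IFIT1 by 1.24 ± 0.25 and ISG15 by 1.21 ± 0.45. The smallest adjusted p among the 17 was 0.313, for IFIT1, by edgeR's quasi-likelihood test. Of the HIF target members, STC2 differed by -1.67 ± 0.19, PFKFB3 by -1.15 ± 0.60, PLOD2 by -1.08 ± 0.32, NDRG1 by -0.60 ± 0.34 and HILPDA by -0.14 ± 0.17. STC2 and PLOD2 were the 2 with an unadjusted p below 0.05.

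**Figure D2:**
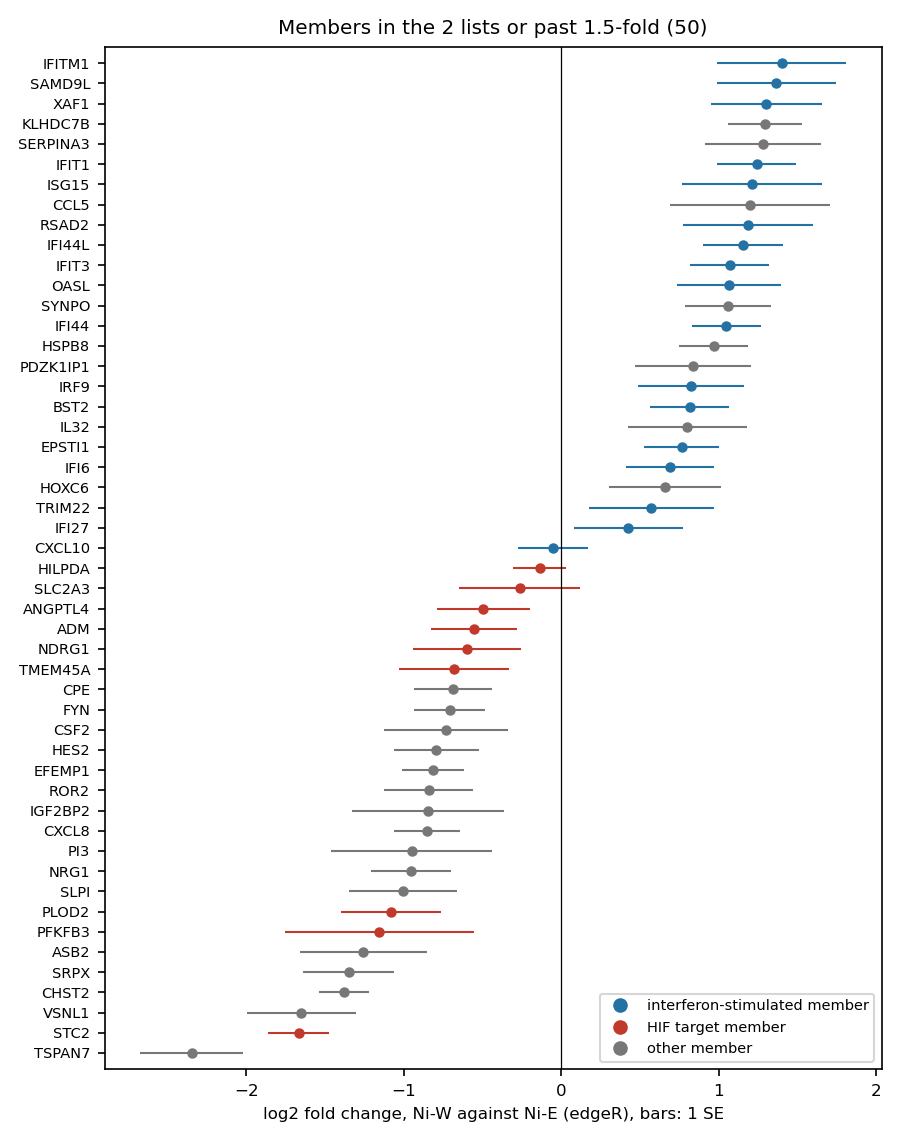
Log2 fold change of Ni-W against Ni-E cells (horizontal axis, edgeR without a replicate block) for the 50 members that are in either list or differ by at least 1.5-fold. Points are estimates and bars 1 SE, with interferon-stimulated members in blue, HIF target members in red and other members in grey. Blue points run from -0.05 to 1.40 and red points from -1.67 to -0.14.

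The same 2 lists were described whole, members included, and the rule chose those members against UT cells. Of the 66 interferon-stimulated genes tested, 64 had a log2 difference above 0 between Ni-W and Ni-E cells, with a median of 0.77, and in 51 both Ni-W libraries lay above both Ni-E libraries. By edgeR's test 0 of the 66 were called and 40 had an unadjusted p below 0.05, all higher, while DESeq2 called 9 higher and the blocked test 45 higher. Of the 64 HIF target genes tested, 59 had a difference below 0, with a median of -0.50, and in 31 both Ni-W libraries lay below both Ni-E libraries. By edgeR's test 0 of the 64 were called and 21 had an unadjusted p below 0.05, all lower, while DESeq2 called 6 lower and the blocked test 17 lower. Against UT cells, edgeR's test without the block called 18 interferon-stimulated genes higher under exposure and 20 after washout, and 24 and 4 HIF target genes. Members, which the rule chose on these comparisons, made up 14 and 14 of the former and 7 and 3 of the latter. Among the list genes that are not members, it called 4 and 6 of 49 interferon-stimulated and 17 and 1 of 55 HIF target genes. With the block the counts over the whole lists were 40 and 59 interferon-stimulated and 44 and 30 HIF target genes. The block also raised the share of all genes called higher, to 7.64% under exposure and 5.79% after washout. Over all 14502 genes, edgeR's test without the block called 1.45% higher and 0.71% lower under exposure, and 0.503% higher and 0.0965% lower after washout. The calls moved when either Ni-E replicate was left out, which leaves 1 library in that group. They are described with the processing settings below, and why they moved was not tested. The comparisons of Ni-E and of Ni-W cells with UT cells share the UT libraries.

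Over all members, the Ni-W/Ni-E ratio was above 1 in both replicates for 34, below 1 in both for 40 and differed in direction for 18. Both Ni-W libraries lay above both Ni-E libraries for 28 of the 91 tested and below them for 29, against 14.6% and 10.5% of all genes. The remaining 34 overlapped. The median log2 difference over the 91 was -0.10. Across these 91 genes, which are not independent replicates, the log2 ratio in replicate 1 and that in replicate 2 had a correlation of 0.88. The level after washout thus ranged widely within a set that the rule had chosen only for lying above UT cells.

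**Figure D3:**
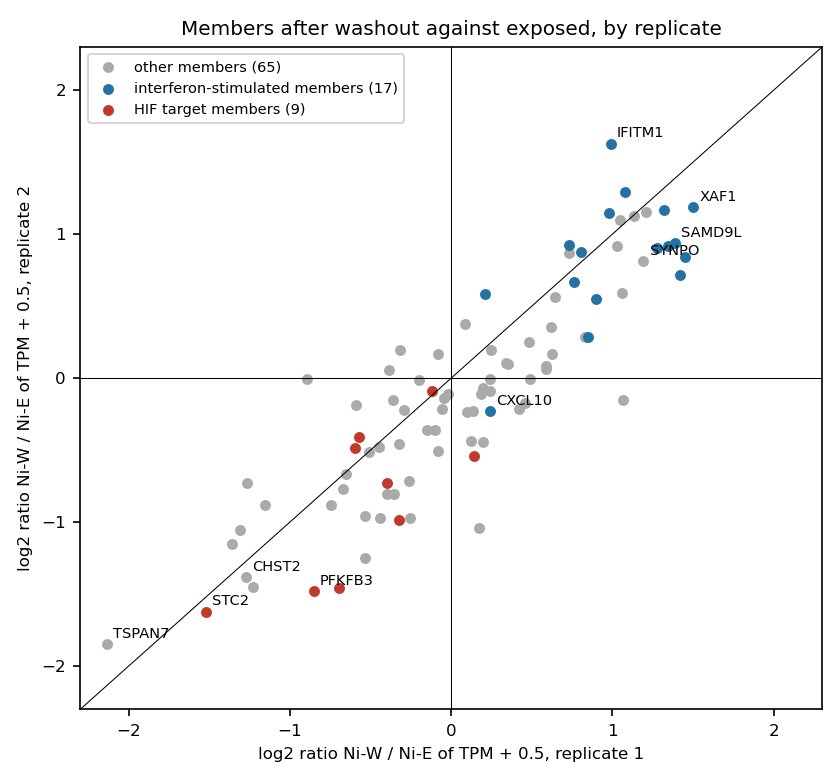
Log2 ratio of Ni-W over Ni-E cells (TPM + 0.5) in replicate 1 (horizontal) and replicate 2 (vertical) for the 91 tested members, with the diagonal drawn. Blue are the 17 interferon-stimulated members, red the 9 HIF target members and grey the other 65. Most blue points lie in the upper right and most red points in the lower left, CXCL10 and SLC2A3 lie in the lower right, and grey points lie in both corners.

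Members outside both lists were spread over the same range, with a median log2 difference of -0.12 over the 65 tested. The difference furthest below 0 belonged to a gene almost silent in UT cells. TSPAN7 was at 0.19 and 0.23 TPM in UT cells, 7.11 and 6.37 TPM in Ni-E cells and 1.23 and 1.41 TPM in Ni-W cells, a log2 difference between Ni-W and Ni-E cells of -2.34 ± 0.33. VSNL1, a neuronal calcium sensor, was listed at 0 and 0.04 TPM in UT cells, 5.73 and 6.72 TPM in Ni-E cells and 2.16 and 2.14 TPM in Ni-W cells. CHST2, a sulfotransferase that acts on N-acetylglucosamine in glycans, was already expressed in UT cells. It stood at 12.8 and 9.44 TPM in UT cells, 141 and 115 TPM in Ni-E cells and 58.2 and 43.7 TPM in Ni-W cells, a difference of -1.38 ± 0.16. These 3 genes had every Ni-W library below every Ni-E library. CHST2 and VSNL1, with SRPX, SYNPO, HSPB8, KLHDC7B and SERPINA3 below, are named with their values in view.

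Several members higher after washout were outside the interferon list. KLHDC7B was at 0.27 and 0.31 TPM in UT cells, 2.72 and 2.21 TPM in Ni-E cells and 6.93 and 5.52 TPM in Ni-W cells, a difference of 1.29 ± 0.23. SYNPO, an actin-associated protein, was at 1.97 and 1.24 TPM in UT cells, 6.05 and 4.37 TPM in Ni-E cells and 14.5 and 8.05 TPM in Ni-W cells. HSPB8, a small heat shock protein, was at 2.62 and 2.70 TPM in UT cells, 10.6 and 10.2 TPM in Ni-E cells and 22.1 and 19.6 TPM in Ni-W cells. SERPINA3, an acute phase protease inhibitor, reached 3.53 and 3.58 TPM in Ni-W cells from 1.45 and 1.41 TPM in Ni-E cells. In all 4 the Ni-W libraries lay above the Ni-E libraries.

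The 5 chemokine and cytokine members also went in different directions after washout. CCL5, which attracts T cells and monocytes, was at 0.29 and 0.89 TPM in UT cells, 4.09 and 5.36 TPM in Ni-E cells and 9.59 and 12.3 TPM in Ni-W cells. IL32, a proinflammatory cytokine, was at 7.03 and 8.69 TPM in UT cells, 25.1 and 31.2 TPM in Ni-E cells and 41.9 and 57.5 TPM in Ni-W cells. CXCL8, by contrast, was at 25.6 and 18.9 TPM in UT cells, 136 and 116 TPM in Ni-E cells and 93.6 and 48.4 TPM in Ni-W cells. CSF2, the growth factor GM-CSF, was at 0.50 and 0.51 TPM in UT cells, 3.36 and 4.55 TPM in Ni-E cells and 2.52 and 2.39 TPM in Ni-W cells. CCL5 and IL32 were thus highest in Ni-W cells and CXCL8 and CSF2 in Ni-E cells, without overlap in any of the 4, and the log2 differences ran from -0.85 ± 0.21 for CXCL8 to 1.20 ± 0.51 for CCL5.

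The metallothionein members MT2A and MT1X lie 72973 bases apart on chromosome 16. MT2A was at 4.14 and 4.96 TPM in UT cells, 42.3 and 53.8 TPM in Ni-E cells and 65.4 and 68.8 TPM in Ni-W cells, with the Ni-W libraries above the Ni-E libraries. MT1X was at 0.45 and 0 TPM in UT cells, 2.75 and 9.43 TPM in Ni-E cells and 6.29 and 8.42 TPM in Ni-W cells, on as few as 6 reads in a Ni-E library. Metallothionein genes are near-identical copies, so that reads could be shared between them. The core of the metal response element, TGCACNC on either strand, was in 12.1% of all promoters, and both members hold more than 1 match. The promoter stretches with the matches in capitals are shown because these are the genes whose known inducer is a metal.
MT2A (chr16:56608334-56608583, plus strand): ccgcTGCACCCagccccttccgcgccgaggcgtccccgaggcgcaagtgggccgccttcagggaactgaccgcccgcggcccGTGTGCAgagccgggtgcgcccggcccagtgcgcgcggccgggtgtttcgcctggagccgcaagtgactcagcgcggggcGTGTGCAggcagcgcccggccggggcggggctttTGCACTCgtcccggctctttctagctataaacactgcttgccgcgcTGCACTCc
MT1X (chr16:56682318-56682428, plus strand): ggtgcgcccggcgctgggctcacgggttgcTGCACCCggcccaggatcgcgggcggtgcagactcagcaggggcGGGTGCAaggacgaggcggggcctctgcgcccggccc

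Secreted defence proteins formed another part of the set. LCN2, the siderophore-binding lipocalin, was at 63.6 and 78.7 TPM in UT cells, 437 and 527 TPM in Ni-E cells and 380 and 522 TPM in Ni-W cells, so that Ni-E and Ni-W cells overlapped. SLPI and PI3 encode related inhibitors of neutrophil elastase and lie 75695 bases apart on chromosome 20. SLPI was at 12.3 and 12.1 TPM in UT cells, 107 and 125 TPM in Ni-E cells and 47.9 and 67.8 TPM in Ni-W cells. PI3 was listed at 0 and 0.17 TPM in UT cells, 15.2 and 18.6 TPM in Ni-E cells and 6.04 and 10.98 TPM in Ni-W cells. Both were lower in every Ni-W library than in every Ni-E library, with log2 differences of -1.004 ± 0.342 and -0.95 ± 0.51. The complement component C3 was at 23.2 and 17.9 TPM in UT cells, 92.5 and 78.7 TPM in Ni-E cells and 117 and 84.5 TPM in Ni-W cells. SOD2, the mitochondrial superoxide dismutase, was at 50.6 and 30.9 TPM in UT cells, 167 and 114 TPM in Ni-E cells and 234 and 114 TPM in Ni-W cells. In C3 and SOD2 the exposed and washed-out libraries overlapped.

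The most abundant members were APOL1, at 246 and 289 TPM in UT cells, 625 and 728 TPM in Ni-E cells and 742 and 834 TPM in Ni-W cells, then NDRG1 and LCN2. SAT1, which acetylates polyamines, was at 70.1 and 70.4 TPM in UT cells, 252 and 283 TPM in Ni-E cells and 244 and 257 TPM in Ni-W cells. APOL1 was higher in both Ni-W libraries than in both Ni-E libraries, and SAT1 overlapped. Among members chosen for their large ratios, CPA4, a carboxypeptidase, held 17.4 and 16.6 TPM in Ni-W cells after 21.5 and 19.4 TPM in Ni-E cells, from 1.76 and 1.72 TPM in UT cells. INPP5D, the lipid phosphatase SHIP1, was at 11.3 and 7.98 TPM in UT cells, 68.6 and 56.2 TPM in Ni-E cells and 81.0 and 55.9 TPM in Ni-W cells. SGK1, a kinase induced by glucocorticoids and stress, was at 1.25 and 0.68 TPM in UT cells, 11.96 and 8.85 TPM in Ni-E cells and 13.8 and 8.42 TPM in Ni-W cells. CPA4 was lower in every Ni-W than in every Ni-E library, and INPP5D and SGK1 overlapped. The histamine receptor gene HRH2 and PPP4R4, a regulatory subunit of a phosphatase, went from at most 1.76 TPM in UT cells to between 3.09 and 13.4 TPM in the nickel libraries.

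Of the list of mesenchymal and EMT genes, 3 of the 17 tested were members. ACTA2, smooth muscle actin, was at 6.61 and 7.48 TPM in UT cells, 36.3 and 37.0 TPM in Ni-E cells and 41.2 and 34.2 TPM in Ni-W cells. Its antisense partner ACTA2-AS1 overlaps it and was also a member, and without stated strand in the library kit or counting, reads of the 2 cannot be told apart. TGFBI, an adhesion protein of the matrix, was at 3.69 and 2.14 TPM in UT cells, 16.8 and 12.96 TPM in Ni-E cells and 11.6 and 8.94 TPM in Ni-W cells. COL3A1, a fibrillar collagen, was at 0.84 and 0.26 TPM in UT cells, 4.13 and 2.18 TPM in Ni-E cells and 4.55 and 1.48 TPM in Ni-W cells. EFEMP1, a fibulin, was at 3.27 and 2.3 TPM in UT cells, 21.6 and 21.5 TPM in Ni-E cells and 14.7 and 10.9 TPM in Ni-W cells. TGFBI and EFEMP1 were lower in both Ni-W libraries than in both Ni-E libraries, and ACTA2 and COL3A1 overlapped. Among single members of other lists, ROR2, a receptor for WNT5A, was at 0.18 and 0.05 TPM in UT cells, 5.10 and 4.40 TPM in Ni-E cells and 3.01 and 2.37 TPM in Ni-W cells. CHAC1, which degrades glutathione and is a target of the integrated stress response, was at 7.81 and 8 TPM in UT cells, 27.3 and 27.5 TPM in Ni-E cells and 21.8 and 31.5 TPM in Ni-W cells. SPATA18, a p53 target, was at 0.67 and 0.76 TPM in UT cells, 4.38 and 4.32 TPM in Ni-E cells and 6.03 and 3.66 TPM in Ni-W cells.

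By RefSeq positions in GRCh38.p14, found for 91 members, 13 members formed 8 pairs within 200 kb of each other. Besides the pairs above these were IFI27, ASB2 and PPP4R4, which lie together on chromosome 14. ASB2, a subunit of a ubiquitin ligase, was lower in both Ni-W libraries (3.22 and 4.48 TPM) than in both Ni-E libraries (8.72 and 9.86 TPM). Its neighbour IFI27 was higher in both, so that this pair did not share one direction after washout. Other pairs did: IFIT1 with IFIT3 and IFI44 with IFI44L were higher in both replicates, and SLPI with PI3 lower.

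H3K4me3, a mark of active promoters, was then read at the same genes in BEAS-2B cells, as the RPKM of the 2 kb on each side of the start site. A promoter value was found for 90 of the 92 members. There is 1 library per condition, so no test was made, and counting intervals cover counting error only. In UT cells the median member promoter had 2.54 RPKM, above the 1.57 RPKM of all 26237 promoters and below the 5.72 RPKM of genes tested in RT4. It was at 1 RPKM or more in 67 of 90 (74.4%), against 82.4% of the promoters of tested genes. The mark was highest at IGF2BP2 (25.8 RPKM), PLOD2 (19.4) and ADM (17.7). At IFI27, CCL5, ASB2, PPP4R4 and PLCH2 it was listed at 0 in all 3 libraries, as it was at 202 of the 13492 promoters of tested genes, and no level is drawn from these zeros.

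Differences in H3K4me3 were expressed as the study's chromatin dynamic score, the difference of square roots of the RPKM divided by the library median. Of the 90 member promoters, 44.4% were above 0 in Ni-E against UT cells, 28.9% in Ni-W against UT cells and 30% in Ni-W against Ni-E cells. Over all promoters the shares were 72.7%, 41.2% and 31.5%, and over the promoters of genes tested in RT4 they were 76.9%, 25.6% and 19.2%. The member shares were thus below both in Ni-E against UT cells, and below all promoters but above those of tested genes in the other comparisons. The shares depend on the scaling. Without division by the median they were 17.8%, 13.3% and 21.1% for members, 40.2%, 21.6% and 19.8% for all promoters and 31.2%, 8.75% and 9.57% for those of tested genes. After quantile normalization they were 31.1%, 34.4% and 46.7% for members, 48.0%, 43.7% and 43.5% for all promoters and 48.2%, 41.5% and 42.6% for those of tested genes. The interferon-stimulated member promoters had a median score of -0.07 in Ni-W against UT cells, and 5 of 17 were above 0. Among them SAMD9L was at 2.90 RPKM in UT, 2.46 in Ni-E and 3.55 in Ni-W cells, and ISG15 was at 4.63, 4.19 and 2.46. For the HIF target members the median score was -0.30, and 1 of 9, TMEM45A, was above 0. The median score in the same comparison was -0.03 over all promoters and -0.16 over those of tested genes.

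The lowest scores in Ni-W against UT cells were those of ADM, IL32 and STC2. ADM went from 17.7 RPKM in UT to 17.3 in Ni-E and 8.22 in Ni-W cells (score -0.65), IL32 from 5.21 to 5.00 and 1.87 (-0.53) and STC2 from 9.96 to 8.13 and 4.44 (-0.53). The highest scores were those of GPX8, an endoplasmic reticulum peroxidase, at 3.21, 2.41 and 5.45 RPKM (0.78), the growth hormone receptor gene GHR at 1.70, 1.47 and 3.07 RPKM (0.61) and VWDE at 0.925, 0.833 and 2.08 RPKM (0.60). These 6 differences, picked as the extremes, exceed the range that counting error gives around 0. It was 0.11 for a score of Ni-W against UT cells at a 95% level. Scores outside it were common: 16 of the 90 member promoters lay above it and 40 below it. Over all 26237 promoters these counts were 5210 and 9521, and over the 13492 promoters of tested genes 1757 and 7601. In RT4 cells, GPX8 was at 1.08 and 0.78 TPM in UT cells, 4.18 and 4.42 TPM in Ni-E cells and 3.71 and 3.33 TPM in Ni-W cells, so that the mark in one line and the transcript in the other are values of different cells.

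**Figure D4:**
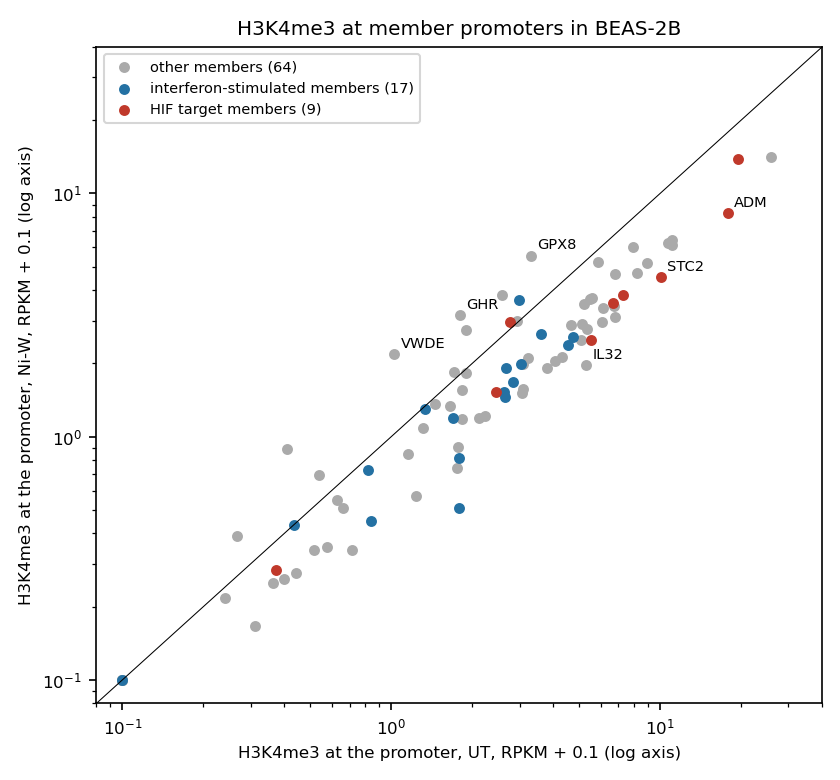
H3K4me3 at the promoters of 90 members in BEAS-2B cells, with RPKM + 0.1 in UT cells on the horizontal and in Ni-W cells on the vertical log axis, and the diagonal drawn. Blue are interferon-stimulated, red HIF target and grey other members, 1 library per condition. Most points lie below the diagonal, and GPX8, GHR and VWDE lie above it.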

How the data were processed

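RNA-Seq of RT4 cells (3 conditions, 2 replicates each) and H3K4me3 ChIP-Seq of BEAS-2B cells (1 library per condition) were analysed. The RT4 files hold, for 28252 genes, the estimated counts that the authors deposited from RSEM. The same deposited files give TPM and FPKM. Their methods give STAR alignment to hg19 and DESeq2, while the submitters' processing notes list GRCh38. Which alignment lies behind the RSEM files, and whether counting used strand, is not given in the sources used here. H3K4me3 reads were mapped by the authors with BWA (hg38), redundant copies were dropped, and the RPKM of each promoter was deposited. Input libraries were not used here. The whole read counts behind the RPKM were recovered (100% of values whole within 0.00055), giving 28385725 reads in UT, 37493949 in Ni-E and 29933551 in Ni-W cells.

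The members and gene lists were chosen with earlier results of these data known. Members were found from the deposited TPM. The estimated counts were rounded and tested in R 4.3.3 with edgeR 4.0.16 (TMM, filterByExpr, 1 quasi-likelihood model of the 3 groups, no block), with calls at 1.5-fold and an adjusted p below 0.05. The script was tested on simulated data. Alternatives were DESeq2 1.42.0, limma 3.58.1 on log2(TPM + 1), RLE factors, no filter, 10 counts in every library, only the 2 groups, a replicate block, each library left out, and other settings of the rule, for which the deposited FPKM were also used. The methods name biological replicates. Replicate 2 is the library with a duplicate suffix in its title, and no label names a shared culture or day. The differences between replicates 2 and 1 correlated across genes by 0.66, 0.76 and 0.69 over the 3 pairs of conditions, and depth split by the same number, so that blocked values are printed where they change a call. Genes named are the members in the lists, the 20 with the largest smallest ratio, the 10 most abundant, the 3 highest and 3 lowest H3K4me3 scores among promoters that reached 1 RPKM in either of these conditions (UT, Ni-W), the 3 nearest each side of the threshold, and others marked as chosen with values in view. Promoters, positions and sequences are from RefSeq GRCh38.p14 by symbol. Positions were found for 91 of 92 members and promoters for 71 (77.2%), so that no share of promoter motifs over all members is given.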

Additional observations from a re-analysis of the deposited data

How the results depend on the processing

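In the Ni-W against Ni-E comparison, 0 genes and 0 members were called by edgeR's test, also with RLE factors, with at least 10 counts in every library, with only the 2 groups, with limma and with any 1 library left out. Without the filter 14 genes and 0 members were called, and with DESeq2 139 genes and 8 members. The sign of the 50 log2 differences drawn was the same under all these settings that covered the gene, except for 3 genes. With at least 10 counts in every library, 36 of the 50 were covered. The 3 genes were CXCL10, HILPDA and IFI27, at -0.05, -0.14 and 0.43 in the main fit. CXCL10 was at 0.0036 with limma and ran from -0.26 to 0.20 with each library left out, HILPDA from -0.29 to 0.016 and IFI27 from -0.080 (without Ni-W replicate 2) to 0.81. Against UT cells the counts moved more, and those of members belong to the contrasts the rule used, so that they test nothing. Under exposure, 314 genes were called, 734 with DESeq2, 209 with 10 counts in every library and 170 with limma. After washout, 87 genes and 48 members were called, 437 and 88 with DESeq2, 193 and 79 without the filter, 54 genes with 10 counts in every library, and 0 and 0 with only the 2 groups. With each library left out, the exposure counts ran from 0 to 320 genes and from 0 to 74 members (69 with every library), with 0 without either Ni-E replicate, 44 genes and 23 members without UT replicate 1 and 18 and 10 without UT replicate 2. The washout counts ran from 0 to 38 genes and from 0 to 30 members, with 0 without either Ni-E replicate or UT replicate 2, 2 genes and 1 member without UT replicate 1, 32 and 26 without Ni-W replicate 1 and 38 and 30 without Ni-W replicate 2. A lone library left in a group is assumed to vary like the other groups.

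A replicate block, with the number taken from the titles, called 1833 genes under exposure and 1243 after washout, and 91 members in each, which the rule had chosen on ratios within the same numbers. Between Ni-W and Ni-E cells it called 655 genes and 36 members. Both fits are given in the report, since the calls depend on the block.

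The number of members was 167 with a ratio of 2 and 60 with a ratio of 3, ran from 113 to 134 with 1 replicate alone, and was 72 with crossed numbers, of which 66 were members. The share of member promoters above 0 in H3K4me3 was 17.8%, 13.3% and 21.1% for Ni-E against UT, Ni-W against UT and Ni-W against Ni-E without median scaling, and the same with log2(RPKM + 1). With quantile normalization it was 31.1%, 34.4% and 46.7%. With only the promoters of at least 1 RPKM in any library it was 48.5%, 26.5% and 30.9%. The GC box in interferon-stimulated member promoters was -25.0 percentage points from its share of all promoters and -44.3 from that of tested genes. The cause of these shifts was not tested. The smallest changes that 2 replicates can show are limited by their number, and members below 1 TPM in UT cells by depth.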
